A study of Homo sapiens with 12 samples.

Results

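The S100 proteins, the annexins and the caveolins were followed across a pair of human prostate cancer cell lines and the docetaxel-resistant lines derived from them. Members were the probe sets found on both array types used whose single gene symbol was an S100 gene, an annexin gene or one of the caveolin genes CAV1, CAV2 and CAV3. This gave 35 of the 11939 genes with a probe set of their own on both types, measured by 46 of the 22215 probe sets shared by the 2 array types: 20 S100, 20 annexin and 6 caveolin probe sets. The matching also took in S100PBP, a binding partner of S100P rather than an S100 protein, and the annexin A2 pseudogenes ANXA2P1, ANXA2P2 and ANXA2P3. The members were matched by name, but the families were chosen with earlier results of these data known. Of the 46, 36 probe sets of 28 genes were bright enough to be tested. The other 10 were the probe sets of ANXA9, ANXA13, S100A8, S100A9, S100A12, S100B and S100G and 1 of 3 for CAV2. On single arrays of replicates 1 and 2 they read 10.5 to 36.0 in 22Rv1-DR and 10.4 to 32.7 in 22Rv1. In DU145-DR they read 32.2 to 72.5, and in DU145 35.8 to 86.8.

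The 4 groups were 22Rv1-DR, docetaxel-resistant cells of 22Rv1 (a prostate cancer line that carries the androgen receptor), parental 22Rv1, DU145-DR, docetaxel-resistant cells of DU145 (a line that lacks androgen receptor signalling), and parental DU145. Resistant cells were kept in docetaxel, a taxane that stabilises microtubules, and parental cells were not, so each within-line comparison joins selection for resistance with exposure to the drug. Each group had 3 samples: replicates 1 and 2 on a smaller array type (8 arrays) and replicate 3 on a larger one (4 arrays), called the third array below. Dose, duration and whether a resistant line is a clone or a pool were not given in the sources used here. Whether replicates are separate cultures was not given either, so every p-value here reflects the spread between these arrays alone, and that spread may be technical.

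S100 proteins are small calcium sensors with a pair of EF hands that mostly work as dimers; some also act outside the cell, for example as ligands of the receptor RAGE. Annexins bind acidic phospholipids when calcium rises and serve in membrane repair, exocytosis and plasmin generation at the cell surface, and the families meet directly, since S100A10 dimers join with annexin A2. Caveolins form the coat of caveolae, the flask-shaped pits of the plasma membrane, with CAV1 and CAV2 co-assembled in most tissues and CAV3 in muscle. In prostate, CAV1, ANXA1 and S100A4 have been studied as markers of tumour progression.

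Values are probe-set intensities on a linear scale. Differences are in log2(intensity + 16), so that 1 is a 2-fold change for bright probe sets and understates the change of dim ones. A probe set was called changed at an adjusted p under 0.05 from limma with Benjamini-Hochberg adjustment over all 14813 probe sets tested on the 8 arrays; errors are limma's standard errors with n = 2 per group. Differences on the third arrays, with n = 1 per group, have no test. The lower end of the scale was not the same everywhere: the 5th percentile was 11.5 to 12.3 on the 22Rv1-DR and 22Rv1 arrays of the smaller type, 35.8 to 38.6 on the DU145-DR and DU145 arrays, and 10.9 to 11 on the third arrays. The median was 59.3 to 69.1, 184 to 205 and 37.5 to 39.7 on the same 3 sets of arrays. A probe set was tested if its mean passed an intensity of 74.0 in at least 1 group, so a member below it in both 22Rv1 groups was tested through its DU145 groups alone.

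Promoter windows of 6 genes that the results turn on are shown first, as the 250 bases before the annotated start, 5′ to 3′ on the gene's strand, taken from RefSeq (GRCh38.p14). Capitals mark CAGGTG or its reverse complement CACCTG, an E-box motif searched on both strands. Where a gene has several annotated starts, the most upstream one is shown. Windows were at hand for 30 of the 35 member genes. CAV2 (chr7:116499488-116499737, plus strand) and CAV1 (chr7:116524759-116525008, plus strand) are neighbours on chromosome 7 and are shown because both read lower in DU145-DR, CAV2 past the threshold and CAV1 not. ANXA3 (chr4:78551520-78551769, plus strand) and S100A4 (chr1:153545807-153546056, minus strand) had the lowest and the highest DU145-DR difference. S100P (chr4:6693628-6693877, plus strand) and S100A6 (chr1:153535992-153536241, minus strand) were S100 genes that fell in 22Rv1-DR.
CAV2: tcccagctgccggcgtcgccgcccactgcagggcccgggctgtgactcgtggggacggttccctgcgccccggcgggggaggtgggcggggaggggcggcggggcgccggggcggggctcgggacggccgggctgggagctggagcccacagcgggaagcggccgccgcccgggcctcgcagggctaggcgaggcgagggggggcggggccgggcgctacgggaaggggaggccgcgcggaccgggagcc
CAV1: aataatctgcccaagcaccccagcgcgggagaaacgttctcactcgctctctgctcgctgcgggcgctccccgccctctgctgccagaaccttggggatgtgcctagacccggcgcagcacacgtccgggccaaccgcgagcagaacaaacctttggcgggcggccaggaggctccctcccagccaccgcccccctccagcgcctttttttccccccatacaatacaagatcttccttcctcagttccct
ANXA3: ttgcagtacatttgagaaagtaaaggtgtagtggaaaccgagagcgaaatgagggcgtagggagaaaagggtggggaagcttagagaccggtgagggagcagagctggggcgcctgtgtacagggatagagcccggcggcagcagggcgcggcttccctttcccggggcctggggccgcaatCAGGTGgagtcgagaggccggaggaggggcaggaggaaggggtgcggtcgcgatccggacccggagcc
S100A4: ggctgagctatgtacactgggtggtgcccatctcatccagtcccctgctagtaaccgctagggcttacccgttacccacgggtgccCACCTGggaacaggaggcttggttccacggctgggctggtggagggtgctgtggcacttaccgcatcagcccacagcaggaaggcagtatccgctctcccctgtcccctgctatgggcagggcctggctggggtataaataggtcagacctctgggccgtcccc
S100P: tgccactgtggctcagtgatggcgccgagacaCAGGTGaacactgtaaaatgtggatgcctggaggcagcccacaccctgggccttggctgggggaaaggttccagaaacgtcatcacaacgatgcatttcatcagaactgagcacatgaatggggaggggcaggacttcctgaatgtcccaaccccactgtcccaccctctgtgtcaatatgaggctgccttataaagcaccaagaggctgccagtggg
S100A6: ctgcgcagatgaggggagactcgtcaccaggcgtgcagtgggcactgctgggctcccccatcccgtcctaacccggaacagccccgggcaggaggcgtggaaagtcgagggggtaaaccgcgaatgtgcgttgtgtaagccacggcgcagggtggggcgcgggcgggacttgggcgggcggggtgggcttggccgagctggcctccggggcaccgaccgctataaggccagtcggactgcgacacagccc
The motif lay 68 bases before the start of ANXA3, 164 before that of S100A4 and 218 before that of S100P, and these letters were absent from the windows shown for CAV2, CAV1 and S100A6. In all, 13 of the 30 member genes had it in at least 1 window, against 20.6% of all genes, and 17.5% of 35116 windows held it. A second motif, TGANTCA, read on both strands, takes any middle base and so is wider than the AP-1 site. It was in windows of 6 of the 30 member genes, against 8.06% of all genes and 6.57% of windows. ANXA2 was among them, at 127 bases before its start, and S100A12 matched by TGAATCA. CpG content differed widely among the windows shown, with 35 CG pairs for CAV2, 24 for S100A6, 18 each for CAV1 and ANXA3, 7 for S100A4 and 4 for S100P, against a median of 11 over all windows (quartiles 3 and 23). A match is a description of the letters in the window and not evidence of binding.

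**Figure D1:**
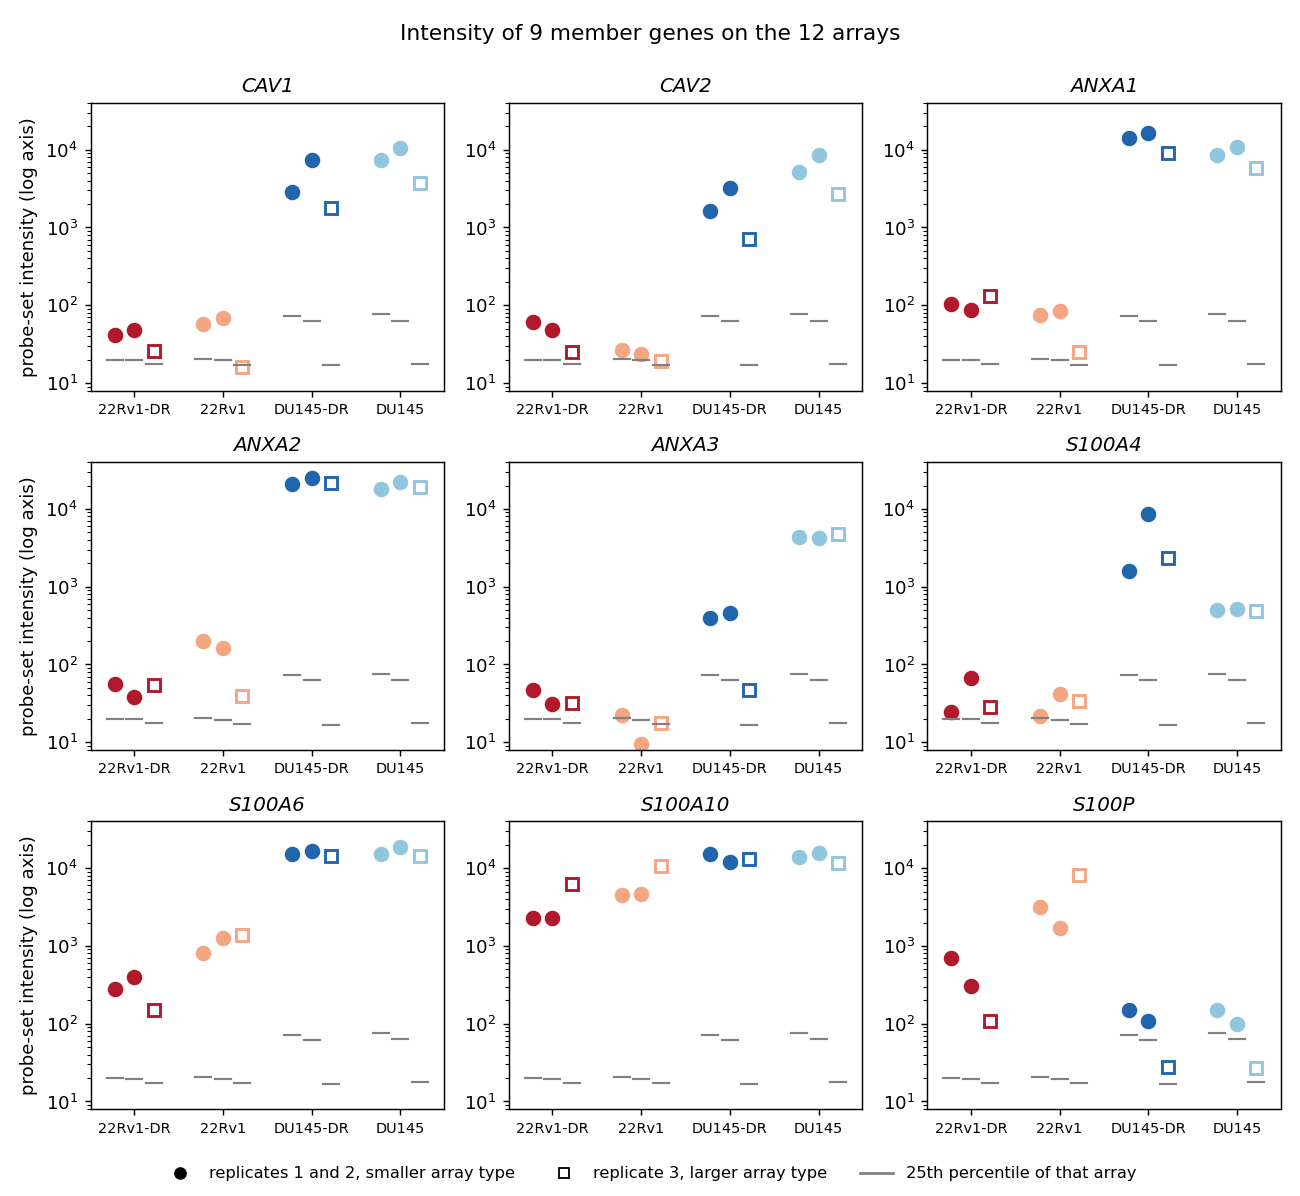
Intensity (log axis) of the described probe set of 9 member genes on each of the 12 arrays, by group; filled circles are replicates 1 and 2, open squares are replicate 3 on the larger array type, and grey bars give the 25th percentile of that array. ANXA3 sits at 391 and 455 in DU145-DR against 4300 and 4240 in DU145, S100P at 695 and 307 in 22Rv1-DR against 3192 and 1722 in 22Rv1, and CAV1 and CAV2 lie at or below 69.1 in both 22Rv1 groups.

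Of the tested members, 7 of 36 probe sets (19.4%) differed between 22Rv1-DR and 22Rv1, against 4.07% of all probe sets; all 7 were lower in 22Rv1-DR, where 1.88% of all probe sets were lower and 2.19% higher. They were ANXA2 (all 3 of its probe sets), ANXA6, S100A6, S100A10 and S100P. Because 3 of the 7 measure ANXA2, they stand for 5 of 28 genes. Between DU145-DR and DU145, 4 of 36 (11.1%) differed, against 8.99% of all probe sets, which is close to the background share. S100A4 was higher, where 4.52% of all were higher, and ANXA3 and CAV2 (2 probe sets) were lower, where 4.47% were lower. The median difference over the tested members was 0.00 in 22Rv1-DR and 0.02 in DU145-DR, against 0.01 and -0.01 over all probe sets. Within 0.5 on the log2 scale lay 24 of 36 members in 22Rv1-DR and 26 of 36 in DU145-DR, a share not taken over all probe sets. Members below the filter intensity in both 22Rv1 groups, such as CAV3 and S100A2, could show little fall there. Differences of 1 or more in either direction were seen on the third arrays for 5 of 36 members in 22Rv1-DR and 11 of 36 in DU145-DR. On the third arrays, 4 of the 7 called probe sets of 22Rv1-DR and all 4 of DU145-DR had the same sign; the other 3 of 22Rv1-DR were those of ANXA2, at 0.33, 0.00 and 0.04.

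Replicate numbers paired the arrays within each line, and a fit with that pairing as a block called more. It called 13 of 36 members in 22Rv1-DR, against 19.7% of all probe sets, and 11 of 36 in DU145-DR, against 33.2%. After quantile normalization 31 members were still tested, of which 7 were called in 22Rv1-DR, against 6.70% of all, and 7 in DU145-DR, against 15.0%. In the unpaired fit, leaving out 1 array moved the counts. Without 22Rv1-DR replicate 1, 22Rv1-DR replicate 2 or 22Rv1 replicate 2, 2 members were called in 22Rv1-DR, and without 22Rv1 replicate 1 a single one was. In DU145-DR the count was 8 without DU145-DR replicate 2, 1 without either DU145 array, and 2 without any 1 of the 4 arrays of the 22Rv1 groups, through the shared estimate of spread.

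Among the caveolins, CAV2 was lower in DU145-DR. Its probe set 203324_s_at read 1618 and 3258 in DU145-DR, against 5221 and 8481 in DU145. The third arrays read 714 in DU145-DR and 2665 in DU145. The groups did not overlap on either array type, and the log2 difference was -1.53 ± 0.35 (limma, adjusted p = 0.0320), with -1.88 on the third arrays. A second probe set, 203323_at, differed by -1.74 ± 0.33 (limma, adjusted p = 0.0159), with -2.57 on the third arrays. The call for 203324_s_at held without DU145-DR replicate 2 and was lost without any other single array (limma, adjusted p up to 0.174), and that for 203323_at was lost without either DU145 array (up to 0.103). Both calls were lost in a fit of the 4 DU145-DR and DU145 arrays alone, and that for 203324_s_at also with no filter on dim probe sets.

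CAV1, the main structural protein of caveolae, read 2817 and 7383 in DU145-DR, against 7434 and 10514 in DU145 (212097_at). The third arrays read 1771 in DU145-DR and 3743 in DU145. Every DU145-DR array was below every DU145 array of its type, but the DU145-DR arrays were far apart, and the difference of -0.95 ± 0.40 was not past the threshold (limma, adjusted p = 0.209; 0.0221 with the replicate block). The other CAV1 probe set, 203065_s_at, differed by -1.28 ± 0.39 (limma, adjusted p = 0.0833) and by -2.13 on the third arrays. It was called with the block (limma, adjusted p = 0.0147), after quantile normalization (0.0242) and when all 12 arrays were fitted together.

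In the 22Rv1 groups both genes lay below the filter intensity of 74.0. CAV1 (212097_at) read 41.1 and 48.5 in 22Rv1-DR, against 56.9 and 69.1 in 22Rv1, with 26.0 in 22Rv1-DR and 16.2 in 22Rv1 on the third arrays. CAV2 (203324_s_at) read 61.4 and 48.5 in 22Rv1-DR, against 26.9 and 23.9 in 22Rv1, with 24.9 and 19.2 on the third arrays. The CAV2 difference of 0.77 ± 0.35 was not past the threshold in the unpaired fit (limma, adjusted p = 0.369, or 0.0101 with the block). Nor was that of 203323_at, 0.93 ± 0.33 (limma, adjusted p = 0.215, or 0.0163 with the block and 0.0386 after quantile normalization). Both were called in a fit of the 4 arrays of the 22Rv1 groups alone. CAV3, the muscle caveolin, read 32.7 and 36.0 in 22Rv1-DR, 30.3 and 37.0 in 22Rv1, 168 and 135 in DU145-DR, and 181 and 148 in DU145. It lay between 47.8 and 61.0 in all 4 groups on the third arrays.

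Caveolae also need cavins, and 10 genes of a wider list for caveola coat and assembly were tested. They were CAVIN1, CAVIN2, CAVIN3, EHBP1, EHD2, FLOT1, FLOT2, PACSIN2, PACSIN3 and ROR1, not all of them coat factors. In 22Rv1-DR, 2 of the 10 were higher and none lower, against 2.19% and 1.88% of all probe sets. CAVIN1, the cavin without which caveolae do not form, read 177 and 280 in 22Rv1-DR, against 58.9 and 77.7 in 22Rv1 (1.51 ± 0.27; limma, adjusted p = 0.0161; 1.37 on the third arrays). EHBP1, a partner of EHD proteins in endocytic traffic, differed by 1.15 ± 0.21 (limma, adjusted p = 0.0186; 1.80 on the third arrays). In DU145-DR, CAVIN3 was higher and CAVIN2 and ROR1 lower, 1 and 2 of the 10, against 4.52% and 4.47% of all. CAVIN3, which controls the mobility of caveolae, read 1017 and 820 in DU145-DR, against 465 and 413 in DU145 (1.03 ± 0.25; limma, adjusted p = 0.0393; 1.02 on the third arrays). CAVIN2, which shapes caveolar membrane, read 99.7 and 91.8 in DU145-DR, against 247 and 413 in DU145 (-1.59 ± 0.24; limma, adjusted p = 0.00659; -1.15 on the third arrays). ROR1, a receptor that scaffolds cavin and caveolin, differed by -1.59 ± 0.19 (limma, adjusted p = 0.00194), with a smaller -0.40 on the third arrays. The 10 genes had a median difference of -0.04 in 22Rv1-DR and -0.27 in DU145-DR, against 0.01 and -0.01 over all probe sets.

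Of the annexins, ANXA3 had the largest within-line difference among the members tested in DU145-DR. It is a calcium-dependent phospholipid binder that has been studied as a marker in prostate cancer. The probe set 209369_at read 391 and 455 in DU145-DR, against 4300 and 4240 in DU145. Replicate 3 read 47.2 in DU145-DR and 4771 in DU145. All DU145-DR arrays were thus far below all DU145 arrays, with a log2 difference of -3.29 ± 0.25 (limma, adjusted p = 0.000229) and -6.24 on the third arrays. This call held without each of the 8 arrays in turn (limma, adjusted p at most 0.00571) and in all 10 other settings. In the 22Rv1 groups ANXA3 lay below the filter intensity, at 46.9 and 31.1 in 22Rv1-DR and 22.2 and 9.51 in 22Rv1. The 22Rv1-DR difference of 0.80 ± 0.25 was past the threshold with the block alone (limma, adjusted p = 0.145 without it and 0.00723 with it).

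ANXA2, the annexin that assembles plasminogen activation with S100A10, fell on replicates 1 and 2 of 22Rv1-DR but not on the third arrays. Probe set 201590_x_at read 55.3 and 38.6 in 22Rv1-DR, against 202 and 163 in 22Rv1. The third arrays read 54.2 in 22Rv1-DR and 39.7 in 22Rv1. The difference was -1.66 ± 0.23 on the smaller array type (limma, adjusted p = 0.00427) and 0.33 on the third arrays. The other ANXA2 probe sets, 210427_x_at and 213503_x_at, gave -1.72 and -1.31 (limma, adjusted p = 0.00823 and 0.00770), with 0.00 and 0.04 on the third arrays. The 201590_x_at call was lost without 22Rv1-DR replicate 2 or 22Rv1 replicate 1 (limma, adjusted p up to 0.0581) and when all 12 arrays were fitted together. The 210427_x_at call was lost without 22Rv1-DR replicate 1, 22Rv1 replicate 1 or 22Rv1 replicate 2, and in the fit of all 12 arrays. With 1 array left out its difference ran from -2.07 to -1.36. All 3 ANXA2 probe sets, and the one for the processed pseudogene ANXA2P2, carry names that mark probes prone to cross-hybridization, so gene and pseudogene cannot be told apart by them.

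In DU145 cells ANXA2 was bright and alike in both groups, at 20738 and 25180 in DU145-DR and 18306 and 21921 in DU145, with 21619 and 19216 on the third arrays. Its DU145-DR difference was 0.19 ± 0.23 (limma, adjusted p = 0.780). The ANXA2P2 probe set read 61.8 and 51.3 in 22Rv1-DR, 99.7 and 58.9 in 22Rv1, 5914 and 9216 in DU145-DR, and 5405 and 8192 in DU145, and was not called within either line. ANXA2P1 and ANXA2P3 lay between 11.4 and 24.6 in the 22Rv1 groups and between 77.7 and 198 in the DU145 groups on the smaller array type, and neither was called.

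ANXA6, an annexin of the endocytic pathway that has been linked to cholesterol handling, was lower in 22Rv1-DR on all 3 pairs of arrays. It read 77.7 and 57.7 in 22Rv1-DR, against 234 and 181 in 22Rv1, and the third arrays read 72.5 in 22Rv1-DR and 236 in 22Rv1. The groups did not overlap, and the difference was -1.42 ± 0.32 (limma, adjusted p = 0.0460) with -1.51 on the third arrays. The call lay close to the threshold: it was lost without any 1 array other than the DU145-DR arrays (limma, adjusted p up to 0.315), with a pseudocount of 64 and with no filter on dim probe sets. In DU145 cells ANXA6 read 317 and 635 in DU145-DR, against 495 and 452 in DU145, with overlapping groups.

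ANXA1, a ligand of formyl peptide receptors with anti-inflammatory action, read 13970 and 16158 in DU145-DR, against 8481 and 10960 in DU145. The third arrays read 9027 in DU145-DR and 5753 in DU145. The DU145-DR arrays were the brighter ones on both array types, but the difference of 0.64 ± 0.21 was not past the threshold in the unpaired fit (limma, adjusted p = 0.104). It was past it with the block (limma, adjusted p = 0.0131) and after quantile normalization (0.0251). In 22Rv1 cells it read 105 and 87.4 in 22Rv1-DR, against 75.6 and 83.9 in 22Rv1, and on the third arrays 133 in 22Rv1-DR and 24.9 in 22Rv1. ANXA10, an annexin best known from gastric epithelium, read 537 and 159 in DU145-DR, against 72.5 and 79.9 in DU145, with 100 and 29.7 on the third arrays. Its difference of 1.75 ± 0.46 was close to the threshold (limma, adjusted p = 0.0513) and was 1.35 on the third arrays. ANXA10 was called in 5 of 10 other settings, among them the block (limma, adjusted p = 0.0252) and quantile normalization (0.0464). In the 22Rv1 groups it read 64.4 and 40.5 in 22Rv1-DR and 27.7 and 24.6 in 22Rv1, with 145 and 32.4 on the third arrays, and was not called.

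The remaining annexins tested were not called within either line without the block. ANXA5, which binds exposed phosphatidylserine, read 3062 and 2419 in 22Rv1-DR and 2150 and 1846 in 22Rv1, a difference of 0.45 ± 0.24 (limma, adjusted p = 0.476; 0.0354 with the block). ANXA11, an annexin of RNA granule transport, differed in 22Rv1-DR by 0.67 ± 0.25 in its probe set 206200_s_at (limma, adjusted p = 0.237; 0.0152 with the block), with 0.52 on the third arrays, and by 0.22 ± 0.18 in 214783_s_at. ANXA4, an annexin of secretory epithelia, was within 0.42 of no difference on the smaller array type for both of its probe sets in both lines. With the block, 201302_at was called in 22Rv1-DR, at -0.42 ± 0.23 (limma, adjusted p = 0.515 without the block and 0.0471 with it). The ANXA4 probe set 201301_s_at read, on the third arrays, 1270 in DU145-DR and 3444 in DU145, a difference of -1.43. There 201302_at read 755 in DU145-DR and 1846 in DU145, a difference of -1.27. For 22Rv1-DR the third arrays gave -0.54 for 201301_s_at and -0.75 for 201302_at. ANXA7, a calcium-dependent GTPase of membrane fusion, was within 0.11 for both of its probe sets in both lines on the smaller array type; on the third arrays of DU145-DR they differed by -0.62 (209860_s_at) and 0.32 (201366_at).

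**Figure D2:**
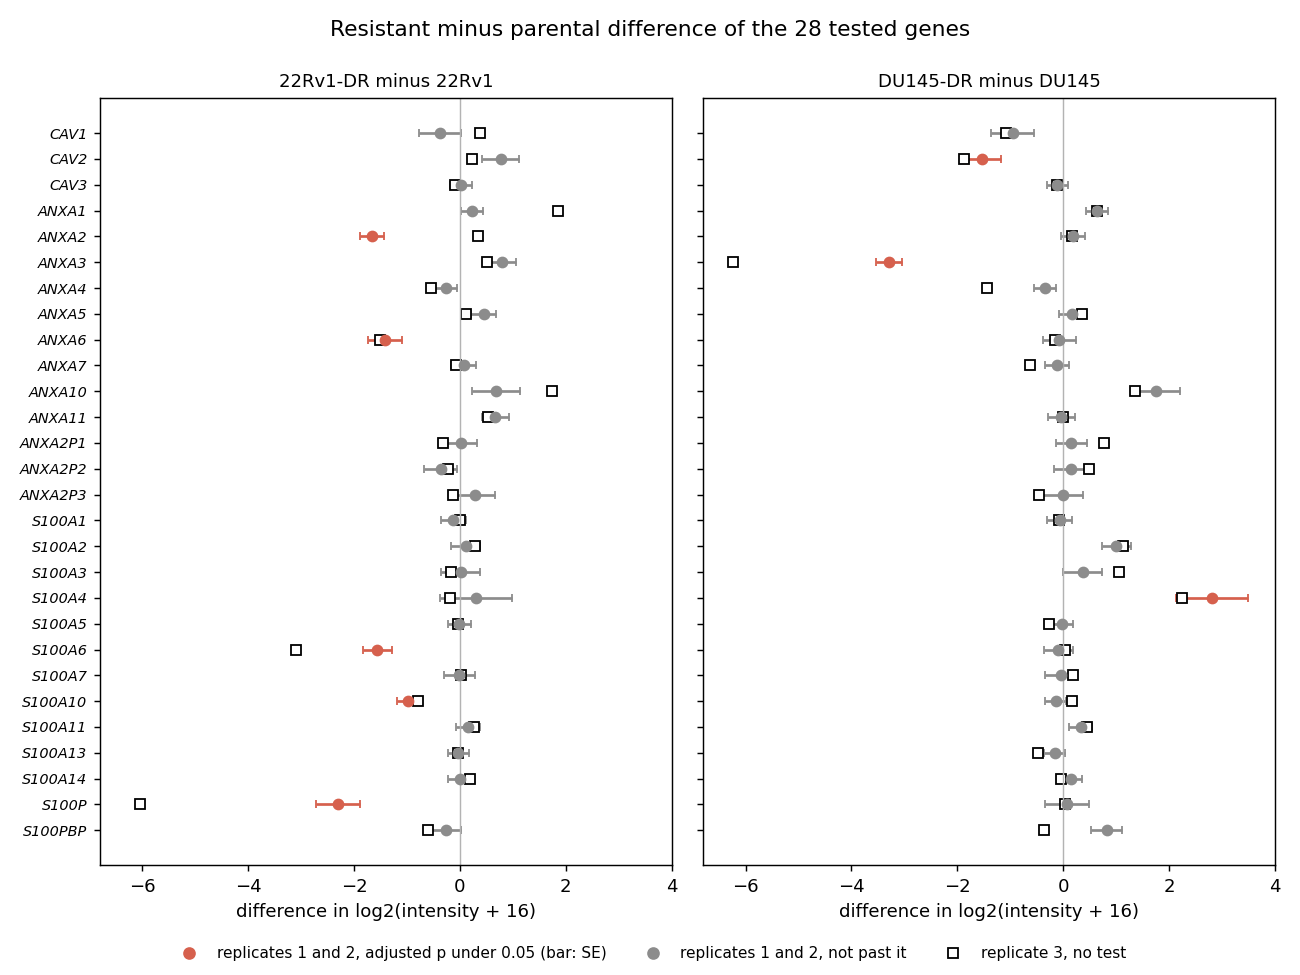
Resistant minus parental difference in log2(intensity + 16) for the described probe set of the 28 tested member genes, 22Rv1-DR minus 22Rv1 in the left panel and DU145-DR minus DU145 in the right panel; circles with standard error bars are replicates 1 and 2 (red past an adjusted p of 0.05, grey not past it) and open squares are the third arrays. ANXA2, ANXA6, S100A6, S100A10 and S100P are red in 22Rv1-DR, and CAV2, ANXA3 and S100A4 in DU145-DR; the square lies on the other side of 0 for ANXA2.

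Among the S100 proteins, S100P fell in 22Rv1-DR. S100P is a secreted and cytoplasmic S100 protein that signals through RAGE. It read 695 and 307 in 22Rv1-DR, against 3192 and 1722 in 22Rv1. Replicate 3 read 108 in 22Rv1-DR and 8249 in 22Rv1. The groups did not overlap on either array type; the difference was -2.30 ± 0.42 (limma, adjusted p = 0.0187) and was -6.05 on the third arrays. The call was lost without 22Rv1-DR replicate 2 or 22Rv1 replicate 1 (limma, adjusted p up to 0.143) and in a fit of these 4 arrays alone. In DU145 cells S100P read 152 and 110 in DU145-DR and 148 and 100 in DU145, below the medians of those arrays, with 28.1 and 27.1 on the third arrays. S100PBP, the nuclear partner of S100P, read 792 and 1438 in DU145-DR and 498 and 714 in DU145, a difference of 0.82 ± 0.30 (limma, adjusted p = 0.138; 0.00562 with the block). The sign of this probe set, 218370_s_at, was the opposite on the third arrays, at -0.36. A further S100PBP probe set found on the larger array type alone, 222610_s_at, gave 0.205 there.

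S100A6, or calcyclin, a partner of annexins and of the ubiquitin-pathway protein CACYBP, was lower in 22Rv1-DR as well. It read 276 and 402 in 22Rv1-DR, against 820 and 1252 in 22Rv1, and on the third arrays 149 in 22Rv1-DR and 1399 in 22Rv1. All 22Rv1-DR arrays were below all 22Rv1 arrays, with a difference of -1.56 ± 0.27 (limma, adjusted p = 0.0153) and -3.10 on the third arrays. The call held in all 10 other settings and was lost without 22Rv1-DR replicate 1 or 22Rv1 replicate 2 (limma, adjusted p up to 0.145). In DU145 cells S100A6 was bright in both groups, at 15076 and 16728 in DU145-DR and 15076 and 18951 in DU145.

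S100A10, the annexin A2 partner also called p11, read 2320 and 2257 in 22Rv1-DR, against 4451 and 4640 in 22Rv1. On the third arrays it read 6208 in 22Rv1-DR and 10735 in 22Rv1. It was lower in 22Rv1-DR on each array type, by -0.99 ± 0.20 (limma, adjusted p = 0.0268) and by -0.79 on the third arrays. The call was lost after quantile normalization (limma, adjusted p = 0.135) and without any 1 of the 4 arrays of the 22Rv1 groups (up to 0.232), and when all 12 arrays were fitted together. In DU145 cells it read 15181 and 11911 in DU145-DR and 13970 and 15717 in DU145, with overlapping groups.

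S100A4, also called metastasin, binds nonmuscle myosin and has been studied in cell motility. It read 1574 and 8540 in DU145-DR, against 508 and 512 in DU145. Replicate 3 read 2352 in DU145-DR and 484 in DU145. Every DU145-DR array was above every DU145 array, but the DU145-DR arrays of the smaller type were far apart. The difference was 2.81 ± 0.68 (limma, adjusted p = 0.0389) and 2.24 on the third arrays. Without DU145-DR replicate 2 it was 1.6 and without DU145-DR replicate 1 it was 4.02, and the call held in both. It was lost without any 1 of the other 6 arrays (limma, adjusted p up to 0.166), with a pseudocount of 1, with no filter on dim probe sets and in a fit of the 4 DU145-DR and DU145 arrays alone. In the 22Rv1 groups S100A4 lay below the filter intensity, at 24.8 and 66.3 in 22Rv1-DR and 21.6 and 42.2 in 22Rv1.

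S100A2, a nuclear S100 protein of basal epithelium that binds p53, read 1795 and 996 in DU145-DR, against 617 and 699 in DU145, and on the third arrays 815 in DU145-DR and 362 in DU145. The groups did not overlap on either array type, and the difference of 1.01 ± 0.27 was close to the threshold (limma, adjusted p = 0.0564), with 1.14 on the third arrays. S100A2 was called in 4 of 10 other settings, among them the block (limma, adjusted p = 0.0268). S100A3, which is best known from the hair cuticle, read 149 and 104 in DU145-DR, against 98.4 and 87.4 in DU145, and on the third arrays 114 in DU145-DR and 46.5 in DU145. Its difference of 0.37 ± 0.37 was not past the threshold (limma, adjusted p = 0.694). S100A11, a partner of annexin A1, read 4012 and 3956 in DU145-DR and 3040 and 3258 in DU145. This was a difference of 0.34 ± 0.22 (limma, adjusted p = 0.448; 0.0436 with the block), with 0.45 on the third arrays. In the 22Rv1 groups S100A11 read 1438 and 1160 in 22Rv1-DR and 1361 and 989 in 22Rv1.

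S100A13, which takes part in the export of FGF1, read 942 and 929 in 22Rv1-DR, 910 and 1003 in 22Rv1, 3169 and 3517 in DU145-DR, and 3281 and 4211 in DU145. On the smaller array type it was within 0.15 of no difference in both lines for both of its probe sets; on the third arrays of DU145-DR, 202598_at differed by -0.48. S100A1, S100A5, S100A7 and S100A14 passed the filter through the DU145-DR and DU145 arrays, where their intensities ran upward of 56.5 but stayed below the medians of those arrays, and on the third arrays they read 12 to 48.5 in all groups. None of them was called within a line. S100A9, which pairs with S100A8 as calprotectin in myeloid cells and inflamed epithelium, was too dim to be tested. It read 15.6 in DU145-DR and 108 in DU145 on the third arrays, and on the smaller type 62.7 and 47.2 in DU145-DR, against 86.8 and 62.7 in DU145.

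Most S100A genes lie together on chromosome 1, so their differences were also set out in chromosomal order. The table of RefSeq genes placed 14 S100A members there, with S100A10 and S100A11 at one end and 47 other protein-coding genes between S100A11 and S100A9. S100A6, S100A5, S100A4, S100A3 and S100A2 follow one another with no coding gene in between. In 22Rv1-DR, S100A6 was lower and its neighbours S100A5 and S100A4 were not called, with differences of -0.01 and 0.31. In DU145-DR, S100A4, S100A3 and S100A2 had differences of 2.81, 0.37 and 1.01, of which S100A4 was past the threshold, while S100A5 and S100A6 on one side of them stood at -0.02 and -0.09 and S100A14 on the other at 0.15. In neither line were 2 neighbouring S100A genes both called. Of 7 tested neighbours that are not S100 genes, DENND4B was higher and SLC27A3 lower in 22Rv1-DR, and INTS3 and TCHH were higher in DU145-DR; over all probe sets 4.07% were called in 22Rv1-DR and 4.52% were higher in DU145-DR. TCHH, the hair follicle protein trichohyalin, read 320 and 117 in DU145-DR, against 49.9 and 46.2 in DU145 (1.72 ± 0.38; limma, adjusted p = 0.0265; 1.64 on the third arrays). SLC27A3, a fatty acid transport protein, read 162 and 156 in 22Rv1-DR, against 461 and 508 in 22Rv1 (-1.51 ± 0.18; limma, adjusted p = 0.00232; -0.72 on the third arrays). DENND4B differed by 1.21 and INTS3 by 0.80 on the smaller array type, with -0.05 and 0.08 on the third arrays.

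**Figure D3:**
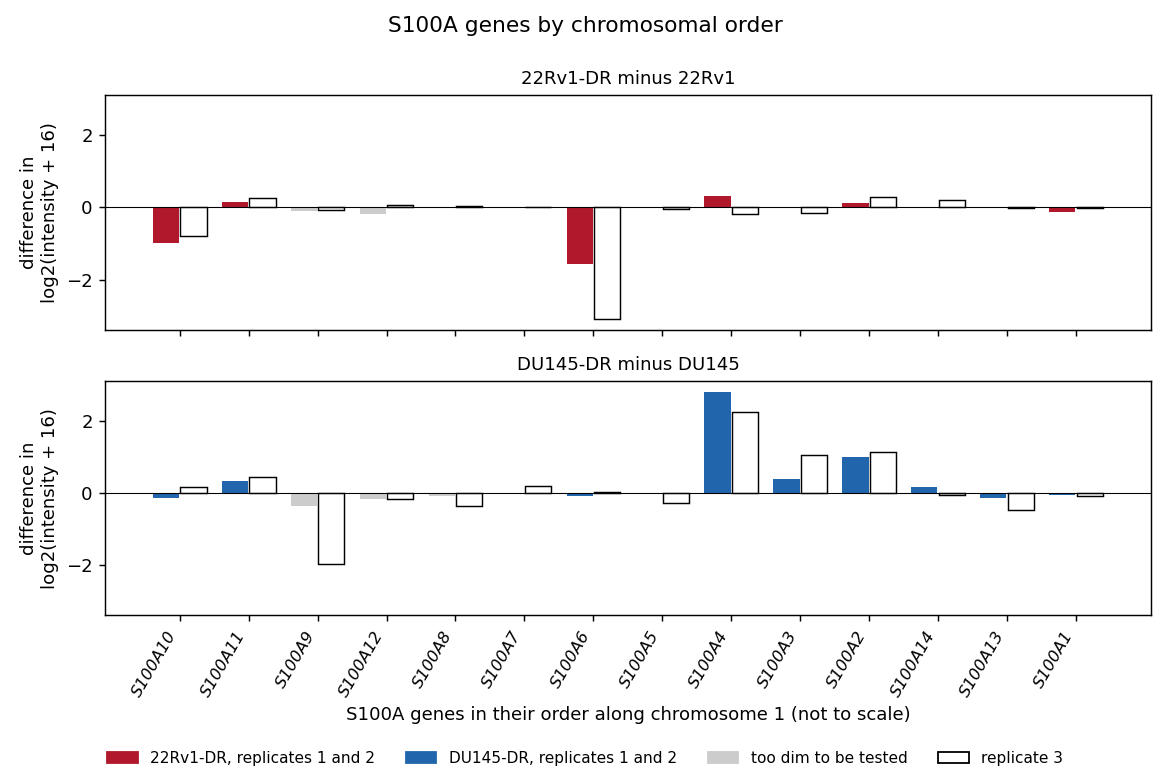
Resistant minus parental difference in log2(intensity + 16) of the S100A genes in their order along chromosome 1 (not to scale), 22Rv1-DR above DU145-DR; filled bars are replicates 1 and 2 (grey where the probe set was too dim to be tested) and open bars the third arrays. The bars of S100A10 and S100A6 point down in 22Rv1-DR, those of S100A4, S100A3 and S100A2 point up in DU145-DR, and the open bar of S100A9 reaches -1.98 in DU145-DR, beside a short grey one.

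Whether resistance came with a different change in the lines was tested as the 22Rv1 change minus the DU145 change. It was past the threshold for 6 of 36 members (16.7%), against 6.46% of all probe sets. In 3 it was positive and in 3 negative, against 3.58% and 2.88% of all. The count was 13 of 36 with the replicate block, against 29.0%. ANXA3 had the largest such difference among the members, 4.09 ± 0.35 (limma, adjusted p = 0.000511), and it held without each of the 8 arrays. For CAV2 the change in 22Rv1 exceeded that in DU145 by 2.67 ± 0.47 (203323_at; limma, adjusted p = 0.0139) and 2.30 ± 0.50 (203324_s_at; adjusted p = 0.0326). The third arrays gave 6.76 for ANXA3 and 2.77 and 2.10 for CAV2. ANXA3 and CAV2 lay below the filter intensity in both 22Rv1 groups and were tested through DU145 cells alone, so a fall in 22Rv1-DR could hardly have been measured. The 203324_s_at call was lost with a pseudocount of 64 and with no filter on dim probe sets. The 3 ANXA2 probe sets gave -1.85, -1.92 and -1.53 (limma, adjusted p = 0.0130, 0.0218 and 0.0169), with 0.16, -0.19 and -0.24 on the third arrays. The 201590_x_at call was lost when all 12 arrays were fitted together.

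For S100P and S100A6 the difference in change was just outside the threshold, at -2.38 ± 0.60 (limma, adjusted p = 0.0541, or 0.000928 with the block) and -1.47 ± 0.38 (adjusted p = 0.0627, or 0.00228 with the block). After quantile normalization S100P was past the threshold (limma, adjusted p = 0.0367) and S100A6 was not (0.0575). The third arrays gave -6.09 and -3.13. S100P lay below the array medians in both DU145 groups, so a fall in DU145-DR would be hard to see. For S100A4 it was -2.50 ± 0.97 (limma, adjusted p = 0.196) and for S100A10 -0.85 ± 0.28 (adjusted p = 0.124; 0.0310 with the block), so S100A4 and S100A10 were called in 1 line without a called difference between the lines in the unpaired fit. The block also called this difference for ANXA6 (-1.35 ± 0.45; limma, adjusted p = 0.129 without it and 0.0411 with it) and ANXA11 (0.70 ± 0.35; 0.342 and 0.0277). Likewise it called the CAV1 probe set 203065_s_at (1.39 ± 0.55; limma, adjusted p = 0.206 without the block and 0.0353 with it) and S100PBP (-1.09 ± 0.42; 0.193 and 0.00808). Without DU145-DR replicate 2, 10 members were past the threshold for this difference, and 3 were without DU145 replicate 2 or 22Rv1-DR replicate 1. The count was 2 without 22Rv1-DR replicate 2 or 22Rv1 replicate 2 and 1 without 22Rv1 replicate 1.

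Between the lines, most members were lower in 22Rv1 cells than in DU145 cells. As deposited, the values cannot be set side by side, since the median over all tested probe sets was -1.34 for 22Rv1-DR against DU145-DR and -1.35 for 22Rv1 against DU145. On that scale 36 of 36 members differed in the resistant pair (1 higher and 35 lower; 83.5% of all probe sets, 3.77% higher and 79.7% lower) and 35 of 36 in the parental pair (1 higher and 34 lower; 83.6% of all, 3.36% higher and 80.2% lower). After quantile normalization, 23 of the 31 members still tested differed in each pair, against 48.6% of all probe sets in each. Of these, 22 were lower and 1 higher in 22Rv1-DR than in DU145-DR, against 23.8% lower and 24.8% higher over all probe sets. In 22Rv1 against DU145, 21 were lower and 2 higher, against 23.2% and 25.4%. A member that passed the filter only through its DU145 level was picked for being higher there, so these counts are a description. Such a member was not always called. After quantile normalization CAV3 was not (limma, adjusted p = 0.111 in the resistant and 0.0571 in the parental pair). Median differences of the members were -0.97 in the resistant and -0.99 in the parental pair, against 0.00 and 0.03 over all probe sets. On the third arrays, whose distributions were alike, they were -1.0 and -0.82.

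Large differences were those of ANXA2, its pseudogene, ANXA1, CAV1, CAV2 and ANXA3, given here as quantile-normalized log2 differences with the third arrays after them. ANXA2 was -7.64 in 22Rv1-DR against DU145-DR and -5.75 in 22Rv1 against DU145, with -8.27 and -8.43 on the third arrays. The ANXA2P2 probe set gave -5.53 and -4.98, with -6.36 and -5.66. ANXA1 was -6.11 in the resistant pair and -5.54 in the parental pair, with -5.93 and -7.14 on the third arrays. CAV1 stood at -5.00 and -5.66, with -5.41 and -6.87, and CAV2 at -3.73 and -6.23, with -4.16 and -6.25. CAV1, CAV2 and ANXA3 lay below the filter intensity in both 22Rv1 groups as deposited and passed through DU145 cells alone. The filter thus favoured a difference, and the size depends on the floor. After quantile normalization CAV1 passed in every group, and CAV2 and ANXA3 in every group but 22Rv1. On replicates 1 and 2, ANXA1, at 75.6 to 105 in the 22Rv1 groups, and ANXA2 in 22Rv1, at 202 and 163, were above the medians of those arrays. In 22Rv1-DR, ANXA2 at 55.3 and 38.6 and ANXA2P2 at 61.8 and 51.3 were below the array medians of 69.1 and 60.1. They were below the filter intensity there, so the size of their differences in the resistant pair also depends on the floor. ANXA1 read 24.9 on the third array of 22Rv1, below its median of 38.05. ANXA3 differed by -1.69 in the resistant pair and -6.08 in the parental pair, with -0.40 and -7.16 on the third arrays: it separated the parental lines far more than the resistant ones.

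Several S100 genes were lower in 22Rv1 cells, and S100P was not. S100A6 was -4.62 in 22Rv1-DR against DU145-DR and -3.13 in 22Rv1 against DU145, S100A4 -4.74 and -2.21, and S100A2 -4.01 and -3.15. The third arrays gave -6.45 and -3.33, -5.74 and -3.31, and -4.29 and -3.44. S100A4 and S100A2 lay below the filter intensity in both 22Rv1 groups as deposited (21.6 to 66.3 and 16.6 to 20.8). On that scale they too passed through DU145 cells alone, and their sizes depend on the floor. S100A10, whose levels were above the array medians in all groups, differed by -1.68 and -0.99, with -1.06 and -0.11 on the third arrays. S100P was higher in 22Rv1 cells, by 3.08 in the resistant pair and 5.39 in the parental pair, with 1.5 and 7.58 on the third arrays. S100PBP was the other member called higher in 22Rv1 than in DU145, by 1.2, but the values as deposited gave -0.10 and the third arrays -0.05.

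**Figure D4:**
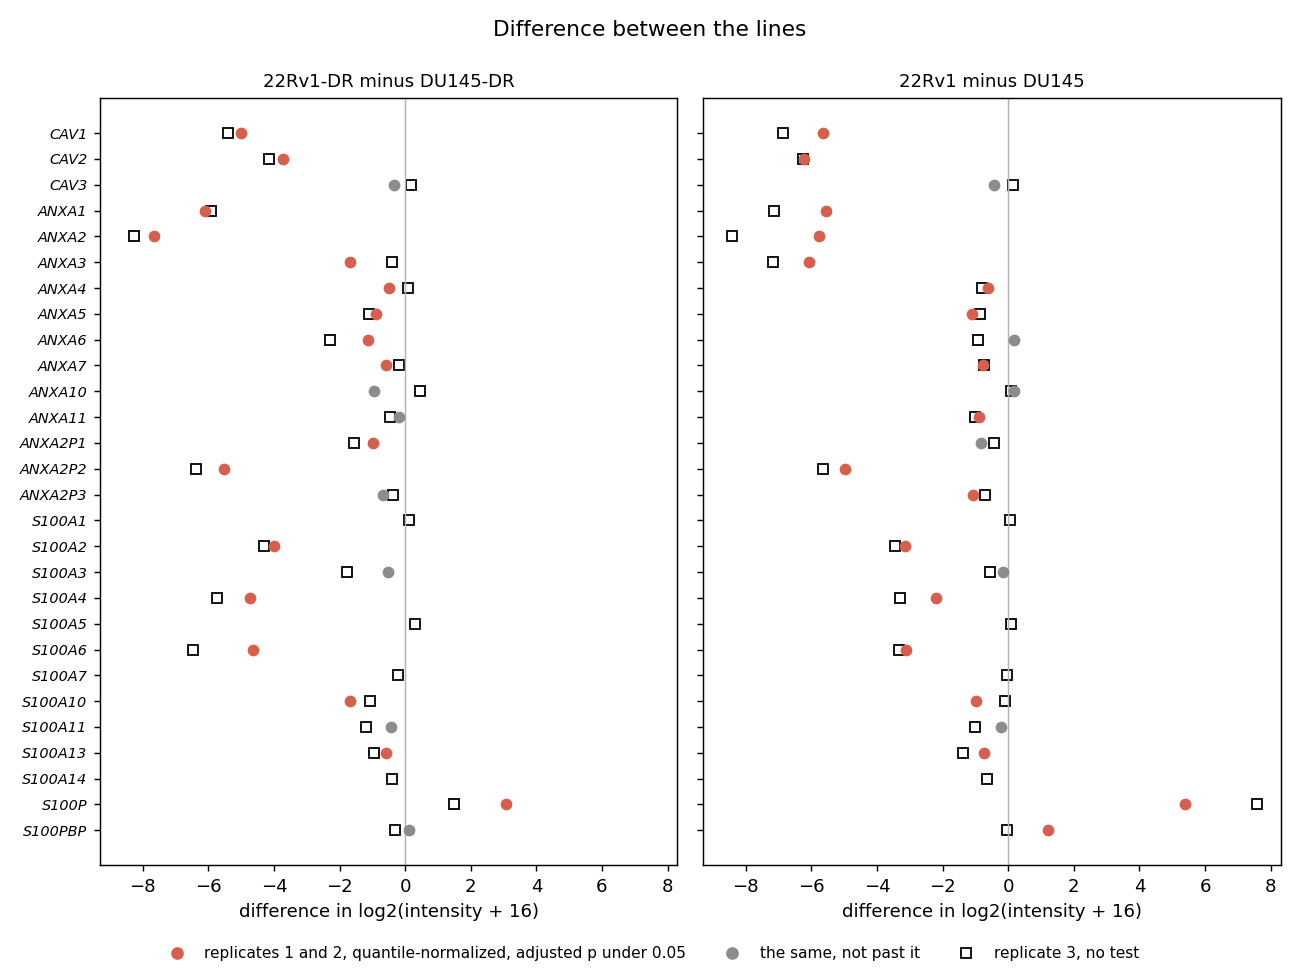
Difference between the lines in log2(intensity + 16) for the described probe set of 28 member genes, 22Rv1-DR minus DU145-DR on the left and 22Rv1 minus DU145 on the right; circles are quantile-normalized replicates 1 and 2 (red past an adjusted p of 0.05, grey not past it) and open squares the third arrays. Genes with a square alone fell below the filter after normalization. S100P lies right of 0 in both panels, and CAV1, CAV2, ANXA1, ANXA2, ANXA2P2, S100A2, S100A4 and S100A6 lie at -2.21 or below in both.

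Genes that work with the members were taken from lists by function. Of 10 membrane repair genes tested, none was called in 22Rv1-DR, against 4.07% of all probe sets, and AHNAK2 alone was called in DU145-DR, where it was lower, against 8.99% of all. AHNAK2, a giant scaffold protein, read 1209 and 815 in DU145-DR, against 2916 and 3743 in DU145 (-1.72 ± 0.27; limma, adjusted p = 0.00684; -2.04 on the third arrays). Of 13 receptors and partners of S100 proteins and annexins, 1 was lower in 22Rv1-DR, against 1.88% of all probe sets. It was PLA2G4A, the cytosolic phospholipase A2 whose activity annexins can restrain, at 50.9 and 29.4 in 22Rv1-DR, against 122.8 and 95.7 in 22Rv1 (-1.18 ± 0.23; limma, adjusted p = 0.0259; -3.23 on the third arrays). In DU145-DR, 2 of the 13 were higher and 1 lower, against 4.52% and 4.47% of all. PLAT, tissue plasminogen activator, read 347 and 182 in DU145-DR, against 70.0 and 63.6 in DU145 (1.70 ± 0.27; limma, adjusted p = 0.00799; 0.57 on the third arrays). PLAU, urokinase, read 2320 and 4182 in DU145-DR, against 5997 and 8964 in DU145 (-1.23 ± 0.31; limma, adjusted p = 0.0433; -1.70 on the third arrays). KCNK3, a potassium channel whose trafficking S100A10 affects, was higher by 1.18 ± 0.22 (limma, adjusted p = 0.0135). On the third arrays KCNK3 was dim, at 30.1 in DU145-DR and 14.7 in DU145, a difference of 0.58.

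Other EF-hand calcium binders and calmodulins gave no call among 16 tested in 22Rv1-DR, against 4.07% of all probe sets, and 4 lower calls in DU145-DR, against 4.47%. EFHD2, an actin-binding EF-hand protein, read 798 and 1218 in DU145-DR, against 4576 and 5480 in DU145 (-2.33 ± 0.24; limma, adjusted p = 0.000878; -1.57 on the third arrays). PLS1, a plastin that bundles actin, was lower by -1.24 ± 0.24, CIB1 by -1.0 ± 0.21 and HPCAL1 by -0.73 ± 0.19 (limma, adjusted p = 0.0154, 0.0250 and 0.0464). The third arrays gave -1.82, -1.01 and -0.19. The median of the 16 was 0.05 in 22Rv1-DR and -0.42 in DU145-DR, against 0.01 and -0.01 over all probe sets. With the replicate block, which called 19.7% of all probe sets in 22Rv1-DR and 33.2% in DU145-DR, there were more calls in these lists: 2 EF-hand genes in 22Rv1-DR and 10 in DU145-DR, 2 and 8 of the receptors and partners, 4 and 5 of the caveola genes, none and 2 of the membrane repair genes, and 2 and 4 of the S100 cluster neighbours.

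Markers of cell type moved beside these members. Androgen receptor positive prostate markers summed to 1139 to 1864 over the 22Rv1-DR and 22Rv1 arrays and to 121 to 487 over the DU145-DR and DU145 arrays (5 genes measured). Of 7 epithelial markers, 2 were lower in 22Rv1-DR and 4 in DU145-DR, against 1.88% and 4.47% of all probe sets, and none was higher in either. The epithelial sums on replicates 1 and 2 were 8436 to 8602 in 22Rv1-DR and 13660 to 14570 in 22Rv1, and 8943 to 11310 in DU145-DR and 25570 to 29710 in DU145. CDH1, which encodes E-cadherin, read 269 and 284 in 22Rv1-DR and 2937 and 3126 in 22Rv1, and 38.6 and 40.2 in DU145-DR and 2369 and 3641 in DU145. Of 6 tested fibroblast markers none was called in DU145-DR, and LUM alone was higher in 22Rv1-DR, which took the summed level of the 8 measured to 3039 and 4193, against 222 and 218 in 22Rv1. The same sum on the third arrays was 1982 in 22Rv1-DR and 1024 in 22Rv1, of which LUM made up 1698 and 729. Endothelial, leukocyte and muscle or adipocyte markers had no call in either line, against 4.07% of all probe sets in 22Rv1-DR and 8.99% in DU145-DR. Few of them could be called, since 2 of 6 endothelial, 2 of 6 leukocyte and 5 of 6 muscle or adipocyte markers passed the filter. The 6 leukocyte markers, for example, summed to 96.5 to 110 in 22Rv1-DR, 97.3 to 108 in 22Rv1, 113 to 380 in DU145-DR and 127 to 394 in DU145 over the 3 arrays, with the higher sums on the DU145-DR and DU145 arrays of the smaller type. The part of these shifts in the members' differences was not tested.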

How the data were processed

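RNA of 12 samples was hybridised to 2 Affymetrix array types. What the authors deposited is linear probe-set intensity; every value (100%) has a log2 with 2 decimals, to within 1e-05. The submitters' processing notes name MAS5 and RMA with no role or version, and the sources used here give no background correction, scaling or genome build. Precision is set by the small number of arrays. Genes were named from the annotation supplied with the arrays: 19064 probe sets of the smaller type had 1 symbol, 1043 several and 2108 none. Those with several or none were left out, and so were 31 of Y-linked or X-inactivation genes. All 22215 probe sets of the smaller type are among the 54613 of the larger.

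Tests used log2(intensity + 16). A probe set was tested if its mean passed the 40th percentile (log2 6.49, intensity 74.0) in at least 1 group. The fit used limma 3.58.1 under R 4.3.3 on the 8 arrays (4 group means, 4 residual and 4.38 prior degrees of freedom, two-sided), with Benjamini-Hochberg adjustment over 14813 probe sets. The fit was tested on simulated data. Each gene is described by its probe set of highest mean among those not ending in _x_at, or of all where every one does. The genes named are those past the threshold within a line or in the difference of changes, a set described whatever their result, and, between lines, these genes with those of the 5 largest differences each way. The members, related lists and tests were chosen with earlier results of these data known.

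Replicate numbers were checked for pairing. Deviations from group means correlated between the resistant and parental arrays of 1 number at 0.792 in 22Rv1 and 0.716 in DU145, against 0.0789 and 0.111 across lines. Over all 12 arrays they were 0.498 to 0.640 in 22Rv1 and 0.567 to 0.726 in DU145, values that include the offset between array types. The numbers were taken as pairs within a line, and a fit with a block for each (2 residual and 3.37 prior degrees of freedom) was an alternative. Others were quantile normalization, arrays shifted to 1 median, pseudocounts of 1 and 64, no filter and one at the 60th percentile, 1 probe set per gene, all 12 arrays with the table as a block, only the 4 arrays compared, and each array left out in turn.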

Additional observations from a re-analysis of the deposited data

Results flagged for a closer look

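The resistant minus parental change differed between the lines, by limma's test of that difference, for 3 member genes. Given as the 22Rv1 change minus the DU145 change in log2(intensity + 16), it was 4.09 for ANXA3, 2.67 and 2.30 for the CAV2 probe sets 203323_at and 203324_s_at, and -1.85, -1.92 and -1.53 for the ANXA2 probe sets 201590_x_at, 210427_x_at and 213503_x_at. For ANXA2 the third arrays gave 0.16, -0.19 and -0.24. These were 6 of the 36 probe sets tested, against 6.46% of all. ANXA3 and CAV2 lay below the filter intensity of 74.0 in both 22Rv1 groups and were tested through DU145 cells alone.

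A signal above the parental level was also present in probe sets found on the larger array type alone, which entered no test. ANXA1 (233011_at) read 298 in DU145-DR and 52.3 in DU145, a difference of 2.20, and 12.6 in 22Rv1-DR and 14.2 in 22Rv1. S100A10 (238909_at) read 292 in DU145-DR and 125 in DU145, a difference of 1.13, and 57.7 in 22Rv1-DR and 160 in 22Rv1, a difference of -1.25. These are single arrays with no replicate check. The brighter S100A10 probe set on both array types, 200872_at, read 12944 in DU145-DR and 11585 in DU145 on the third arrays. That was a difference of 0.16, and replicates 1 and 2 gave -0.14.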

How the results depend on the processing

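Counts of changed members depended on the setting. In 22Rv1-DR against 22Rv1 the 7 calls became 3 with all 12 arrays in 1 fit, 13 with the replicate block and 1 to 8 with 1 array left out. In DU145-DR against DU145 the 4 calls became 7 after quantile normalization, 2 without a filter, 11 with the replicate block, 1 with only the 4 arrays compared, and 1 to 8 with 1 array left out. For the difference of changes the 6 calls became 13 with the replicate block and 1 to 10 with 1 array left out. Between the lines, 36 calls in the resistant and 35 in the parental pair became 23 in each after quantile normalization and 17 in each with arrays shifted to 1 median; with 1 array left out they were 36 and 33 to 35. In 22Rv1 against DU145, ANXA6 turned to 0.19 after quantile normalization and 0.43 with the median shift, and S100A11 turned to 0.21 with the median shift. After quantile normalization ANXA10 also turned, with 0.19 (limma, adjusted p = 0.769) in place of -1.13 (0.0458), and S100PBP turned to 1.2 (0.00404) in place of -0.10, and in the resistant pair to 0.12 (0.668) in place of -1.19 (0.00525). These settings remove the offset between the lines' arrays, and the cause of the other changes was not tested. The replicate block changed no member's call other than those given beside the results. With 2 arrays per group and backgrounds that differ between the lines, small changes and levels near the floor could not be resolved.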

Other observations

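Some members of these families have probe sets on the larger array type alone, with 1 array per group and no test. S100A16, a widely expressed S100 protein, read 115 in 22Rv1-DR, 71.5 in 22Rv1, 3743 in DU145-DR and 3591 in DU145. ANXA2R, described as a receptor for annexin A2, read 60.5 in 22Rv1-DR and 139 in 22Rv1, a difference of -1.02, and 388 in DU145-DR and 588 in DU145. A further ANXA11 probe set, 228727_at, read 80.4 in DU145-DR and 247 in DU145, a difference of -1.45, while the ANXA11 probe sets on both array types did not differ by more than 0.19 in that pair on the third arrays. S100Z and the second S100A7A probe set, 232170_at, lay between 14.4 and 20.0 in all 4 groups.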
